A study of Mus musculus with 12 samples.

Results

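The 6 genes of vitamin A uptake and conversion, Rbp2, Bco1, Lrat, Aldh1a1, Dhrs3 and Isx, were followed in mRNA sequencing data from mucosal scrapings of the mouse ileum. They were chosen by name, for their role, with earlier results of these data known. All 6 were among the 55891 genes measured and among the 12605 genes that passed the filter on low values. Their identifiers are ENSMUSG00000032454 (Rbp2), ENSMUSG00000031845 (Bco1), ENSMUSG00000028003 (Lrat), ENSMUSG00000053279 (Aldh1a1), ENSMUSG00000066026 (Dhrs3) and ENSMUSG00000031621 (Isx). The mice were unchallenged and came from 2 litters. Litter A held 4 mice labelled Erbb3-FF and 3 labelled ERBB3-dIE, and litter B held 2 and 3, so each genotype had 6 mice with 1 library each. Erbb3 encodes a receptor tyrosine kinase of the epidermal growth factor receptor family. The labels name the genotypes without spelling out the allele, the cells in which it was altered, the strain, the age or the sex, and all 12 mice were at baseline with no treatment named.

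Vitamin A reaches the enterocyte as retinol from retinyl esters or as carotenoids from plants. Bco1 encodes the oxygenase that cleaves beta-carotene to retinal, and Rbp2 encodes the cellular binding protein that carries retinol and retinal in enterocytes. Retinal can be reduced to retinol, a step catalysed by the product of Dhrs3, and retinol is esterified by the product of Lrat for export in chylomicrons. Aldh1a1 encodes an enzyme that oxidises retinal to retinoic acid, the ligand of nuclear receptors. Isx encodes an intestinal homeobox protein that is induced by retinoic acid and represses Bco1 and Scarb1, a gene of carotenoid and lipid uptake, which closes a feedback loop.

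Values are transcripts per 1000000 transcripts (TPM), which are scaled for gene length and to the same total in every library, so levels can be compared between genes. The number of reads behind a library is unknown. Erbb3 itself lay between 87.3 and 151 TPM in Erbb3-FF and between 104 and 206 TPM in ERBB3-dIE mice. A gene-level sum can miss the loss of part of a gene, and the labels were used as given. Pmp22, a junctional membrane protein gene named in the series title, lay between 548 and 790 TPM in Erbb3-FF and between 135 and 250 TPM in ERBB3-dIE mice.

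The libraries differed in ways that bear on these genes. Summed over 8 genes typical of the ileum, among them the bile acid transporter gene Slc10a2, the level was 30038 to 39882 TPM in the 5 mice of litter B. In litter A it was 49967 TPM in Erbb3-FF mouse 3 and 7760 to 12661 TPM in the other 6 mice. A list of 20 absorptive enterocyte genes, which holds none of the 6 retinoid genes, spanned 11298 to 27540 TPM in Erbb3-FF mice and 5023 to 20099 TPM in ERBB3-dIE mice. Genes more typical of the colon (6 genes) reached 3956 and 6653 TPM in ERBB3-dIE mice 4 and 5 and at most 1833 TPM in the other 10 libraries. The same 2 mice had the highest summed smooth muscle level, 179 and 160 TPM against at most 114 TPM elsewhere. B cell genes summed to 131 to 339 TPM in Erbb3-FF mice 1 to 3 and to at most 19.3 TPM in the other 9 libraries. Pan-epithelial genes (12 genes) stayed between 9688 and 14045 TPM. The 7 genes typical of the proximal intestine summed to 24.7 to 85.6 TPM in Erbb3-FF mice, highest in mouse 3, and to 29.5 to 43.5 TPM in ERBB3-dIE mice. Of these genes, Onecut2, Cybrd1 and Cyp8b1 were under 0.5 TPM in every library. In a bulk sample, fewer cells of a type and less RNA per cell cannot be told apart.

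Of the 6 genes, 3 with a role in absorption and storage, Rbp2, Bco1 and Lrat, fell in ERBB3-dIE mice. The other 3 did not pass the test between genotypes, although Aldh1a1 was also lower on average. The test was a limma fit on log2(TPM + 0.5) with genotype and litter as terms, adjusted over all 12605 genes by the Benjamini-Hochberg method with a threshold of 0.05. Differences below are on this log2 scale, which understates the change of low genes. In the same fit 3.7% of all tested genes were lower in ERBB3-dIE mice and 1.66% were higher, 5.36% in all, so 3 of 6 stands beside a background of 3.7%. Because the 6 genes were chosen with earlier results of these data known, this is a description and not a test of the set. The median difference of the 6 genes was −0.79, against −0.00 over all tested genes, where 50.1% had a negative difference.

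**Figure D1:**
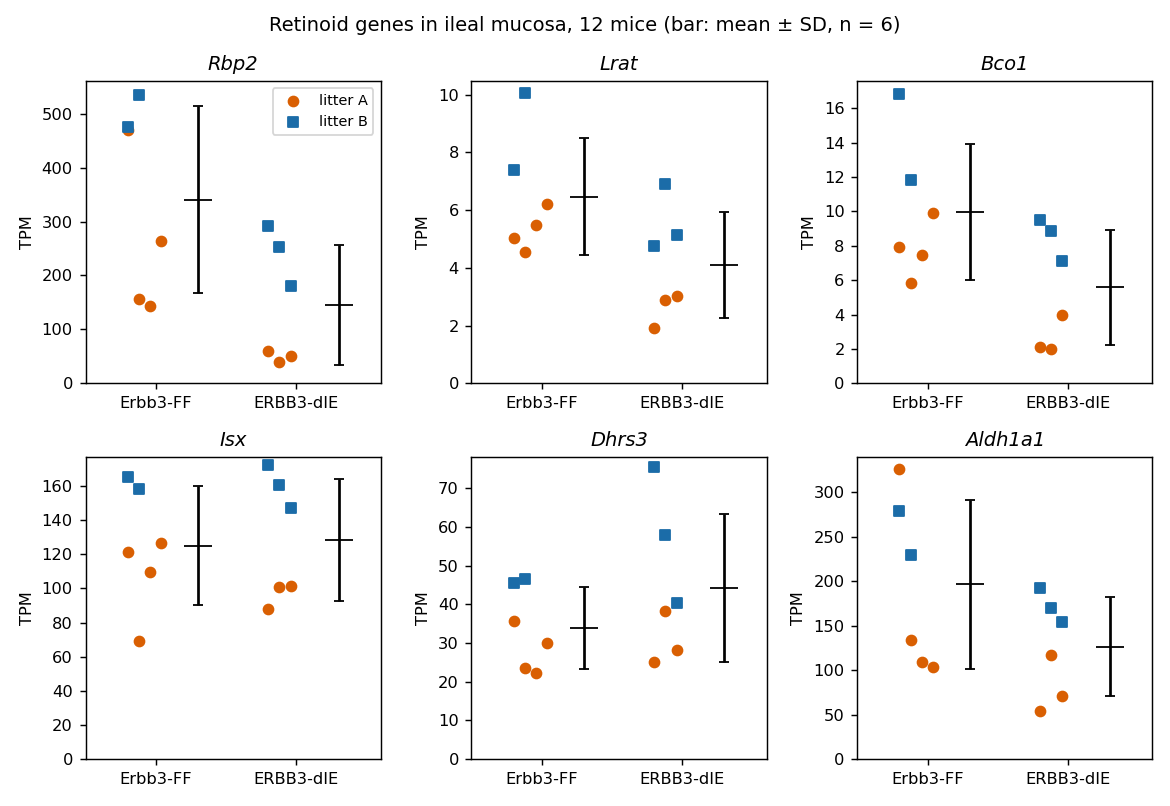
Level in TPM (vertical axes, each from 0) of the 6 retinoid genes in 12 ileal libraries, by genotype, with circles for litter A, squares for litter B, and the mean ± SD over 6 mice beside them. Within each litter every ERBB3-dIE mouse lies below every Erbb3-FF mouse for Rbp2, Lrat and Bco1, and every litter B mouse lies above every litter A mouse for Isx and Dhrs3.

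Rbp2 had the highest mean of the 6 genes in Erbb3-FF mice and the largest fall among them. In litter A its level was 469, 157, 143 and 263 TPM in Erbb3-FF mice 3 to 6 and 59.1, 40.1 and 50.1 TPM in ERBB3-dIE mice 4 to 6. In litter B it was 476 and 536 TPM in Erbb3-FF mice 1 and 2 and 291, 252 and 181 TPM in ERBB3-dIE mice 1 to 3. Every ERBB3-dIE mouse was thus below every Erbb3-FF mouse of its own litter, while the ranges overlapped across litters. A lower level without overlap was found in 7.42% of all tested genes in litter A, in 23.7% in litter B and in 4.75% in both. Over 6 mice each, the mean fell from 341 ± 174 (SD) to 145 ± 111 TPM. This was a log2 difference of −1.75 with an SE of 0.31 and a 95% interval of −2.43 to −1.07 (limma adjusted p = 0.0112). The exact 2-sided permutation of genotypes within litters gave p = 0.00286, the smallest that its 350 relabellings can give. The mean in ERBB3-dIE mice was 19.3% of that in Erbb3-FF mice in litter A and 47.7% in litter B.

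Bco1, the gene of the beta-carotene oxygenase, was expressed at a lower level in every library and fell in the same mice. In litter A it was at 7.92, 5.84, 7.46 and 9.89 TPM in Erbb3-FF mice 3 to 6 and at 2.09, 1.96 and 3.98 TPM in ERBB3-dIE mice 4 to 6. In litter B the values were 16.9 and 11.9 TPM in Erbb3-FF mice 1 and 2 and 9.49, 8.88 and 7.12 TPM in ERBB3-dIE mice 1 to 3. Again the genotypes did not overlap within either litter. Over 6 mice each, the mean fell from 9.97 ± 3.96 (SD) to 5.59 ± 3.36 TPM, by −1.13 on the log2 scale (SE 0.21, 95% interval −1.58 to −0.67; limma adjusted p = 0.0132; exact permutation p = 0.00286). The mean in ERBB3-dIE mice was 34.4% of that in Erbb3-FF mice in litter A and 59.2% in litter B.

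Lrat, the gene of the enzyme that turns retinol into its storage ester, was the least abundant of the 6. In litter A it was at 5.02, 4.55, 5.50 and 6.22 TPM in Erbb3-FF mice 3 to 6 and at 1.92, 2.87 and 3.03 TPM in ERBB3-dIE mice 4 to 6. In litter B it was at 7.40 and 10.07 TPM in Erbb3-FF mice 1 and 2 and at 4.77, 6.92 and 5.15 TPM in ERBB3-dIE mice 1 to 3. As for Rbp2 and Bco1, the genotypes were separate within each litter and overlapped when the litters were pooled. Over 6 mice each, the mean fell from 6.46 ± 2.03 (SD) to 4.11 ± 1.84 TPM, by −0.79 on the log2 scale (SE 0.15, 95% interval −1.12 to −0.45; limma adjusted p = 0.0162; exact permutation p = 0.00286).

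The 3 genes that fell had no 75-base word, the read length, in common with transcripts of other genes, except for 3 of 2264 words of Bco1. Their upstream sequences are shown because these genes fell together, with that of Isx, which did not, for comparison. Each is the 250 bases before the RefSeq start site, 5′ to 3′ on the gene's strand, in the build GRCm38.p6 and not the build of the expression table. Capitals mark the hexamer AGGTCA, which nuclear receptors bind, read on either strand, and the TATA box TATAAA on the gene's strand.
Rbp2, chr9:98490287-98490536, plus strand: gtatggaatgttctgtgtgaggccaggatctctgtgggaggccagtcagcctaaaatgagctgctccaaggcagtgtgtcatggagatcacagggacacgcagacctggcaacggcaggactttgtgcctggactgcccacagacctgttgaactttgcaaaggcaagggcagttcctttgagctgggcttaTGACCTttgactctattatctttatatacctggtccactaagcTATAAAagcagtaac
Bco1, chr8:117095615-117095864, plus strand: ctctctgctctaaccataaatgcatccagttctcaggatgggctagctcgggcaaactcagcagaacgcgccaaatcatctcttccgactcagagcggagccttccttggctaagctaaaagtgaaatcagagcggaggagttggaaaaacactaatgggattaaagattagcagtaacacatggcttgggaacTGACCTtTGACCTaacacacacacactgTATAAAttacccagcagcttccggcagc
Lrat, chr3:82903975-82904224, minus strand: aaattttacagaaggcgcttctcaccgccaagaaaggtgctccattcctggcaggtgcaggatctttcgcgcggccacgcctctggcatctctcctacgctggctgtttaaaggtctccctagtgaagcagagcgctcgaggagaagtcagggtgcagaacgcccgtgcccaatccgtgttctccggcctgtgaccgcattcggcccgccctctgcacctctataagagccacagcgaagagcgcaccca
Isx, chr8:74872924-74873173, plus strand: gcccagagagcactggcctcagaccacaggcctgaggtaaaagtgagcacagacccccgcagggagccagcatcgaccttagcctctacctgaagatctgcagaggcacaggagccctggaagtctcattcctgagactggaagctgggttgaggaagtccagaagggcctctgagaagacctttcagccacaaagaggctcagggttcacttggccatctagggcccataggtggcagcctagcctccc

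The Bco1 window held a direct repeat of the hexamer with a spacer of 1 base (AGGTCANAGGTCA, either strand), the form bound by HNF4 and by PPAR paired with RXR. It lies at −56 to −44 from the start site on the minus strand, above a TATA box at −28. These positions hold for the RefSeq start site. In the GENCODE annotation of the same build, an exon of Bco1 covers bases 117095854 to 117095864 of the window. This repeat was present in 11 of 32851 RefSeq promoter windows of that length (0.0335%), and in 159 (0.484%) when 1 base was allowed to differ. The Rbp2 window held a single exact copy of the hexamer at −58, present in 14.0% of windows, and a TATA box at −15, present in 7.59%. Repeats with more than 1 base different were not searched for, in this window or the others. The Lrat and Isx windows held none of these letters. The other motifs searched on both strands were CAAAGTCCA for HNF4, TTTATGG for CDX factors, AGATAA for GATA factors, and the hexamer repeated with spacers of 2 bases (AGGTCANNAGGTCA) and 5 bases (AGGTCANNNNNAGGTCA). Among the 4 printed windows TTTATGG was found in that of Bco1 and AGATAA in that of Rbp2, and the other 3 motifs in none. They occur in 2.43% and 9.99% of all windows. A match is a description of letters, and no binding was measured here.

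Aldh1a1, the retinal dehydrogenase gene, was lower on average in ERBB3-dIE mice but did not pass the test. In litter A it was at 327, 134, 109 and 103 TPM in Erbb3-FF mice 3 to 6 and at 54.0, 116 and 70.4 TPM in ERBB3-dIE mice 4 to 6. In litter B it was at 279 and 229 TPM in Erbb3-FF mice 1 and 2 and at 192, 170 and 155 TPM in ERBB3-dIE mice 1 to 3. The genotypes were separate in litter B, as for the 23.7% of all tested genes that were lower there without overlap, and overlapped in litter A. Over 6 mice each, the means were 197 ± 95.1 (SD) and 126 ± 55.7 TPM, a log2 difference of −0.80 (SE 0.28, 95% interval −1.42 to −0.17; limma adjusted p = 0.128). The exact 2-sided permutation within litters, which is not adjusted over genes, gave p = 0.0143, and for this gene the authors' deposited table holds −0.59 as log2 fold change, at an adjusted p of 0.0232. Its close relative Aldh1a7 shared 50 of the 2284 words of 75 bases of Aldh1a1 (2.19%), so some reads may be split between them. With the TPM of both summed, the log2 difference was −0.75 (limma adjusted p = 0.145).

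Dhrs3, the gene of the retinal reductase, and Isx, the homeobox gene of the feedback loop, did not pass between genotypes. Dhrs3 was at 35.8, 23.6, 22.1 and 29.8 TPM in Erbb3-FF and at 25.0, 38.2 and 28.0 TPM in ERBB3-dIE mice of litter A. In litter B it was at 45.4 and 46.6 TPM in Erbb3-FF and at 75.5, 57.9 and 40.3 TPM in ERBB3-dIE mice. The genotypes overlapped in both litters. The log2 difference was 0.19 (SE 0.17, 95% interval −0.19 to 0.57; limma adjusted p = 0.562; exact permutation p = 0.314).

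Isx was at 121, 69.4, 110 and 127 TPM in Erbb3-FF and at 88.2, 101 and 101 TPM in ERBB3-dIE mice of litter A. In litter B it was at 165 and 159 TPM in Erbb3-FF and at 172, 161 and 147 TPM in ERBB3-dIE mice. Here too the genotypes overlapped in both litters. The log2 difference was −0.07 (SE 0.14, 95% interval −0.37 to 0.23; limma adjusted p = 0.804; exact permutation p = 0.674), an interval that leaves room for a change of either sign, and the sign changed with the settings. Scarb1, the other gene known to be repressed by Isx, was low in both genotypes (1.79 ± 1.23 and 2.04 ± 1.33 TPM, log2 difference 0.29, limma adjusted p = 0.675).

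**Figure D2:**
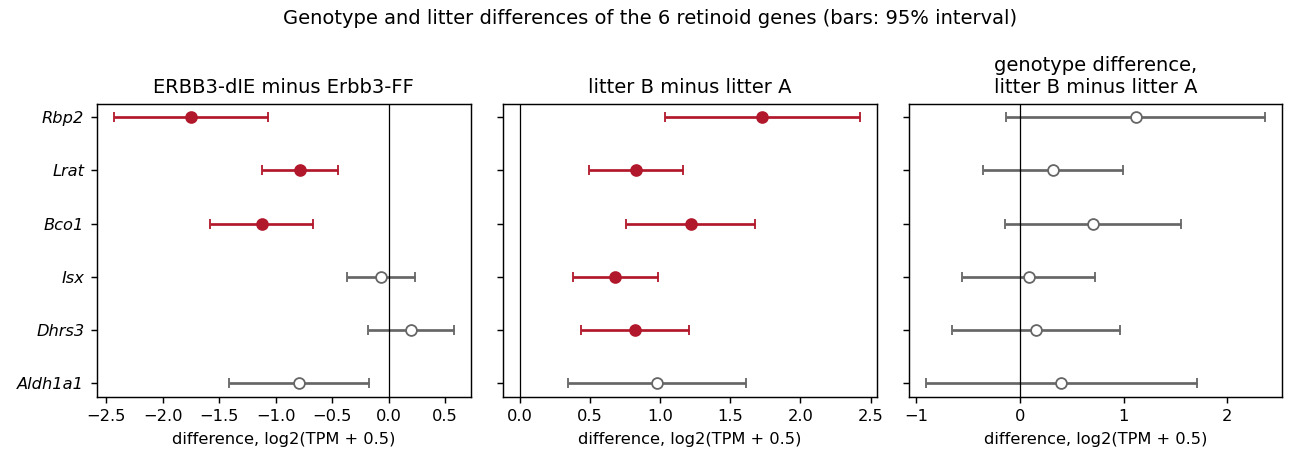
Differences on the log2(TPM + 0.5) scale with 95% intervals for the 6 retinoid genes (rows), between genotypes (left), between litters (middle) and of the genotype difference between litters (right), with filled red points past an adjusted p of 0.05. Rbp2, Lrat and Bco1 are below 0 on the left, from −1.75 to −0.79, and all 6 genes are above 0 in the middle.

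In level, Rbp2 was the most abundant of the 6 genes in Erbb3-FF mice and exceeded Aldh1a1 in 6 of 6 libraries. In ERBB3-dIE mice it exceeded Aldh1a1 in 4 of 6, and the means of Rbp2 (145 ± 111 TPM), Isx (128 ± 35.8 TPM) and Aldh1a1 (126 ± 55.7 TPM) lay close together. Every Erbb3-FF mouse, of either litter, had more Rbp2 than Isx. In ERBB3-dIE mice the order of Rbp2 and Isx went with litter. In litter B every ERBB3-dIE mouse had more Rbp2 than Isx (181 to 291 against 147 to 172 TPM). In litter A each had less (40.1 to 59.1 against 88.2 to 101 TPM). Aldh1a1 exceeded Isx in 4 of 6 libraries of each genotype, so these neighbours were not separate in either. Isx was above Dhrs3, and Dhrs3 above Bco1, in all 12 libraries. Bco1 exceeded Lrat in 6 of 6 Erbb3-FF and 5 of 6 ERBB3-dIE libraries.

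All 6 genes had higher levels in litter B, and 5 of them passed the test, Aldh1a1 being the exception. In this comparison 7.16% of all tested genes were higher and 1.4% lower in litter B, 8.55% in all, and 55.6% had a positive difference. Rbp2 was higher by 1.73 on the log2 scale (SE 0.32, adjusted p = 0.0176), Bco1 by 1.22 (SE 0.21, adjusted p = 0.0167) and Lrat by 0.83 (SE 0.15, adjusted p = 0.0185). Dhrs3, whose level was 22.1 to 38.2 TPM in litter A and 40.3 to 75.5 TPM in litter B, was higher by 0.82 (adjusted p = 0.0259). Isx, at 69.4 to 127 TPM in litter A and 147 to 172 TPM in litter B, was higher by 0.68 (adjusted p = 0.023). For Dhrs3 and Isx the litters did not overlap, with litter B higher, as for 1.9% of all tested genes. Aldh1a1 was at 54.0 to 327 TPM in litter A and 155 to 279 TPM in litter B (difference 0.98, adjusted p = 0.0578).

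Single libraries decided several of these litter calls. In the 12 fits without 1 library each, the calls of Bco1 and Lrat held in 12, that of Rbp2 in 10, that of Isx in 7 and that of Dhrs3 in 5, with adjusted p-values of at most 0.067 in any of these. The Rbp2 call was lost without ERBB3-dIE mouse 1 or 4, and the Isx call without Erbb3-FF mouse 1 or ERBB3-dIE mouse 1, 2, 4 or 5. That of Dhrs3 was lost without Erbb3-FF mouse 1, 2 or 4 or ERBB3-dIE mouse 1, 2, 4 or 6. Litter moved together with the ileum list and the enterocyte list described above, of which 7 of 8 and 19 of 19 tested members had a positive litter difference (medians 0.85 and 1.06). Of the 6 colon genes 2 were lower in litter B (list median −2.17). Of all tested genes 55.6% had a positive litter difference and 1.4% were lower in litter B. Erbb3-FF mouse 3 of litter A, which had the highest ileum and enterocyte sums, had an Rbp2 level of 469 TPM and the highest Aldh1a1 level of all, 327 TPM. Its Lrat (5.02 TPM) and Bco1 (7.92 TPM) lay within the range of the other 3 Erbb3-FF mice of litter A. Without this mouse all 6 genes passed between litters.

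The genotype difference was tested for a change between litters. Litter B minus litter A, it was 1.12 for Rbp2 (SE 0.56, unadjusted p = 0.0742, limma adjusted p = 0.596), 0.70 for Bco1 (SE 0.38, adjusted p = 0.634) and 0.32 for Lrat (SE 0.30, adjusted p = 0.781). For Isx, Dhrs3 and Aldh1a1 it was 0.08, 0.15 and 0.40, with adjusted p-values of 0.949, 0.917 and 0.864. None of the 6 passed, as none of the 12605 genes did (0%), although 1174 genes had an unadjusted p under 0.05 (9.31%). The point estimates of the genotype difference in litters A and B were −2.21 and −1.09 for Rbp2, −1.41 and −0.71 for Bco1, and −0.92 and −0.60 for Lrat. Fitted in each litter alone, none of the 3 passed, with adjusted p-values from 0.112 to 0.372.

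**Figure D3:**
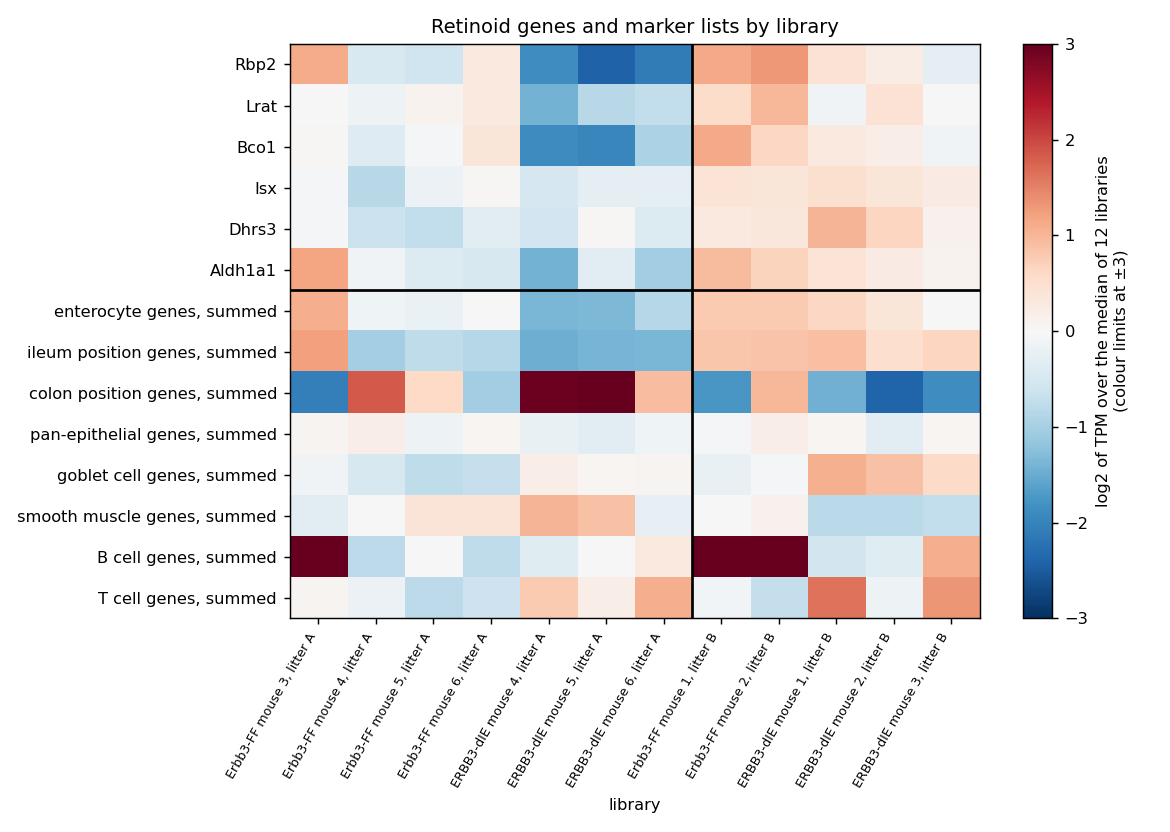
Level of the 6 retinoid genes and summed level of 8 marker lists in each library (columns, litter A left of the line and litter B right of it), as log2 of TPM over the median of the 12 libraries, with colours limited at ±3. ERBB3-dIE mice 4 to 6 are lowest for Rbp2, at 40.1 to 59.1 TPM, and also lowest for the enterocyte list, at 5023 to 7191 TPM.

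The fall of Rbp2, Bco1 and Lrat moved together with the enterocyte list, of whose 19 tested members 8 fell and all 19 had a negative difference (median −0.90). For this and the lists below, the shares over all tested genes were 3.7% lower, 1.66% higher and 50.1% with a negative difference. The ileum list had 1 of 8 members lower and a median of −0.44, and the pan-epithelial list had 2 of 12 lower, 1 higher and a median of −0.16. Of the goblet cell list 6 of 10 members rose (median 0.80), and its summed level was 19113 to 31121 TPM in Erbb3-FF and 33999 to 68610 TPM in ERBB3-dIE mice. Of the T cell list 3 of 10 members rose (median 0.85), with sums of 86.3 to 157 TPM and 134 to 462 TPM. The part of goblet and T cell genes in the results was not tested. The enterocyte score was also used as a covariate, chosen after the data were seen. With it the differences were −0.74 for Rbp2, −0.68 for Bco1 and −0.67 for Lrat (SE 0.22, 0.26 and 0.22). The limma adjusted p-values were 0.191, 0.271 and 0.225. Without a score the differences were −1.75, −1.13 and −0.79 (SE 0.31, 0.21 and 0.15). With the pan-epithelial score they were −1.57, −1.09 and −0.85, with adjusted p-values of 0.0726, 0.0687 and 0.0569.

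The calls of these 3 genes held in each of the 12 fits that left out 1 library. Without ERBB3-dIE mice 4 and 5, the libraries rich in colon and smooth muscle genes, the differences were −1.53 for Rbp2, −0.77 for Bco1 and −0.64 for Lrat, and none passed (adjusted p of 0.106, 0.0934 and 0.117). Without Erbb3-FF mice 5 and 6, in which the ribosomal sequences listed as Mir6236 and Rn18s-rs5 took 10.2% and 10.8% of the TPM against at most 1.62% elsewhere, Lrat did not pass (−0.69, adjusted p = 0.0587). With the smooth muscle score as a covariate all 3 passed. They also passed with the colon score, chosen after the data were seen. The differences were then −1.46 for Rbp2, −0.94 for Bco1 and −0.72 for Lrat (limma adjusted p of 0.00975, 0.012 and 0.0358). With the B cell score the differences were −1.76, −1.23 and −0.88, with adjusted p-values of 0.0818, 0.0674 and 0.0675. The authors' deposited table, whose design is not given in the sources used here, has log2 fold changes of −1.45 for Rbp2, −0.99 for Bco1 and −0.71 for Lrat.

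**Figure D4:**
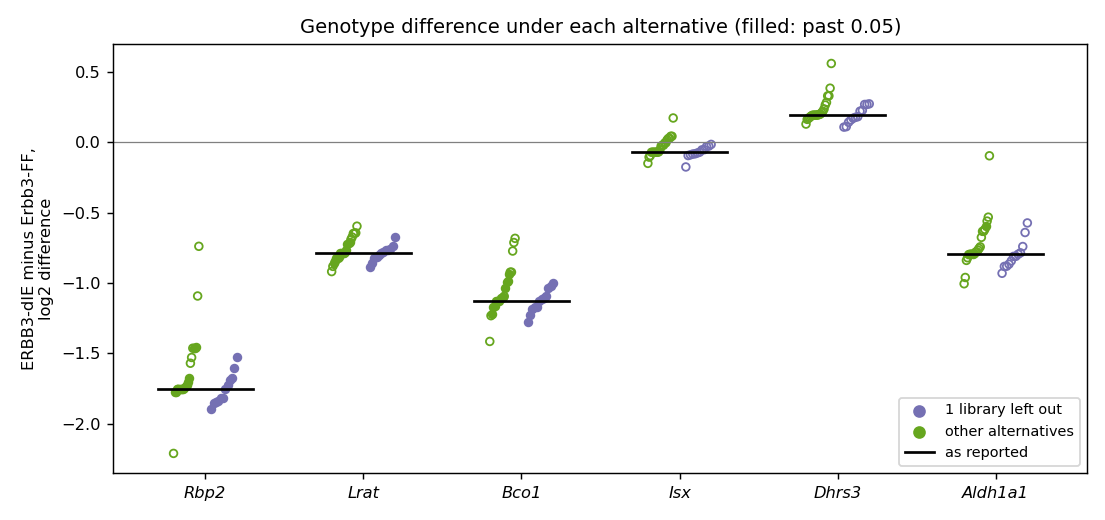
Genotype difference (vertical axis, log2 scale) of each retinoid gene under every alternative setting, with the reported value as a black line, fits without 1 library in violet, other alternatives in green, and filled points past a p of 0.05. Points for Rbp2, Lrat and Bco1 are below 0 throughout, and those for Isx lie on both sides of 0.

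The wider pathway was read from a list of 70 other genes of carotenoid and retinoid handling, of which 46 passed the filter on low values. This list too was chosen with earlier results of these data known. Between genotypes 5 of the 46 fell and 2 rose, with a median difference of −0.11, while 3.7% of all tested genes fell and 1.66% rose. Between litters 12 were higher and 2 lower in litter B, with a median of 0.23, while 7.16% of all tested genes were higher and 1.4% lower. Of these 14 litter calls that of Rdh7 failed in 2 of 12 fits with 1 library left out, and each of the others in 5 to 11.

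In uptake and lipoprotein export, 2 of 7 tested genes fell, and both are also markers of the enterocyte. Mttp, which loads lipid onto nascent chylomicrons, fell from 142 ± 36.7 to 84.9 ± 36.3 TPM (log2 difference −0.95, limma adjusted p = 0.0261). Apob, the structural protein of chylomicrons, fell from 557 ± 265 to 341 ± 193 TPM (−0.94, adjusted p = 0.0494). Leaving out 1 library ended the Apob call in 9 of 12 fits. It ended that of Mttp in 4, for Erbb3-FF mouse 1 or 6 and ERBB3-dIE mouse 4 or 5. Plb1, a brush border phospholipase that can hydrolyse retinyl esters, ranged from 0.89 to 67.8 TPM and was higher in litter B by 3.04 (adjusted p = 0.0391).

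Of the acyltransferases that can esterify retinol beside Lrat, Dgat2 fell from 56.9 ± 18.1 to 38.0 ± 12.3 TPM (−0.70, limma adjusted p = 0.0216). Dgat1 was at 362 ± 109 and 287 ± 122 TPM and did not pass (−0.52, adjusted p = 0.151). Both were higher in litter B, by 0.72 and 0.79. The Dgat2 call between genotypes needed Erbb3-FF mouse 1 and ERBB3-dIE mice 5 and 6, each of which ended it when left out.

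Among 8 tested retinol dehydrogenase genes, Rdh16f2 fell from 3.38 ± 2.35 to 1.03 ± 0.97 TPM (−1.56, limma adjusted p = 0.0405), a call that 6 of 12 fits with 1 library left out did not make. Rdh7 had a difference of −1.33 that did not pass (adjusted p = 0.115) and was higher in litter B by 2.47 (adjusted p = 0.0187). Rdh9, the most abundant by its listed level (71.5 ± 30.3 and 57.3 ± 28.1 TPM), did not pass between genotypes (−0.53, adjusted p = 0.188) and was higher in litter B by 1.09. Its value is uncertain, since 89.1% of the 75-base words of its transcript also occur in other genes, most of them in Rdh16f1. Adh1, an alcohol dehydrogenase gene, was at 21.1 ± 10.04 and 29.2 ± 13.1 TPM (0.37, adjusted p = 0.475).

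Among 7 tested reductase genes, Rdh13 rose from 6.28 ± 0.83 to 8.62 ± 1.49 TPM (0.46, limma adjusted p = 0.0391), a call that 8 of 12 such fits did not make. Akr1b7 (70.2 ± 32.1 and 111 ± 61.4 TPM) and Dhrs4 (42.2 ± 9.50 and 40.6 ± 8.52 TPM), the most abundant of this class, did not pass between genotypes. Akr1b8 and Akr1b10 were lower in litter B by 2.16 and 0.92 on the log2 scale, the reverse of the direction of the 6 retinoid genes, and Rdh14 was higher by 0.60. Among the other retinal dehydrogenase genes, Aldh1a7 alone passed the filter. It did not pass between genotypes (−0.37, adjusted p = 0.537) and was higher in litter B by 1.27 (adjusted p = 0.0379). Aldh1a2, the enzyme of intestinal dendritic cells and stroma, was at 0.12 to 1.33 TPM.

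Binding and transport proteins other than Rbp2 did not pass in either comparison. Of 10 on the list 5 were tested, among them Rbp7 (24.7 ± 3.58 and 22.9 ± 10.8 TPM) and Fabp5 (6.70 ± 3.50 and 6.68 ± 1.55 TPM). Of the enzymes that break down retinoic acid, Cyp26a1, Cyp26b1 and Cyp26c1 were at most 0.72 TPM in every library, and Cyp2s1 was at 36.1 ± 5.96 and 36.4 ± 6.41 TPM.

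None of the 5 tested receptor genes passed between genotypes. The nearest was Rara, a retinoic acid receptor gene, at 16.4 ± 2.49 and 13.3 ± 2.70 TPM (−0.36, limma adjusted p = 0.0633), and it was higher in litter B by 0.37 (adjusted p = 0.0484). Ppard (58.6 ± 10.4 and 57.1 ± 4.25 TPM) and Rxra (41.6 ± 4.55 and 36.9 ± 4.98 TPM) were the most abundant and did not pass. The receptor gene Rarb, itself a target of retinoic acid in many tissues, was at 0.03 to 0.46 TPM.

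Of 6 tested genes listed as retinoic acid responsive, 1 rose and 1 fell. Plaat3, a phospholipase of the family that also holds a human retinoic acid receptor responder, rose from 17.0 ± 4.54 to 37.8 ± 11.4 TPM without overlap (1.14, limma adjusted p = 0.0186), as for 1.02% of all tested genes. Rai14, named for its induction by retinoic acid and encoding an actin-associated ankyrin repeat protein, fell from 13.1 ± 2.19 to 6.80 ± 2.31 TPM (−1.03, adjusted p = 0.00395). The Rai14 call held in all 12 fits without 1 library and that of Plaat3 in 10, the exceptions being those without Erbb3-FF mouse 1 (0.97, adjusted p = 0.0508) or 2 (1.145, adjusted p = 0.0503). Cdx1 (116 ± 14.2 and 138 ± 8.39 TPM) and Tgm2 (53.6 ± 13.3 and 62.0 ± 17.0 TPM) did not pass.

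Of 4 tested transcription factor genes of the intestinal epithelium that act beside Isx, none passed between genotypes. Cdx2, an activator of intestinal genes, was at 121 ± 17.9 and 123 ± 13.5 TPM (0.02, 95% interval −0.24 to 0.27). Hnf4a, the gene of a receptor-like factor that binds direct repeats with a spacer of 1 base as in the Bco1 window, was at 293 ± 27.5 and 261 ± 26.5 TPM (−0.17, 95% interval −0.37 to 0.04; limma adjusted p = 0.326). Gata6 was higher in litter B by 0.30 (adjusted p = 0.0406), and Gata4 was at most 0.91 TPM.

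**Figure D5:**
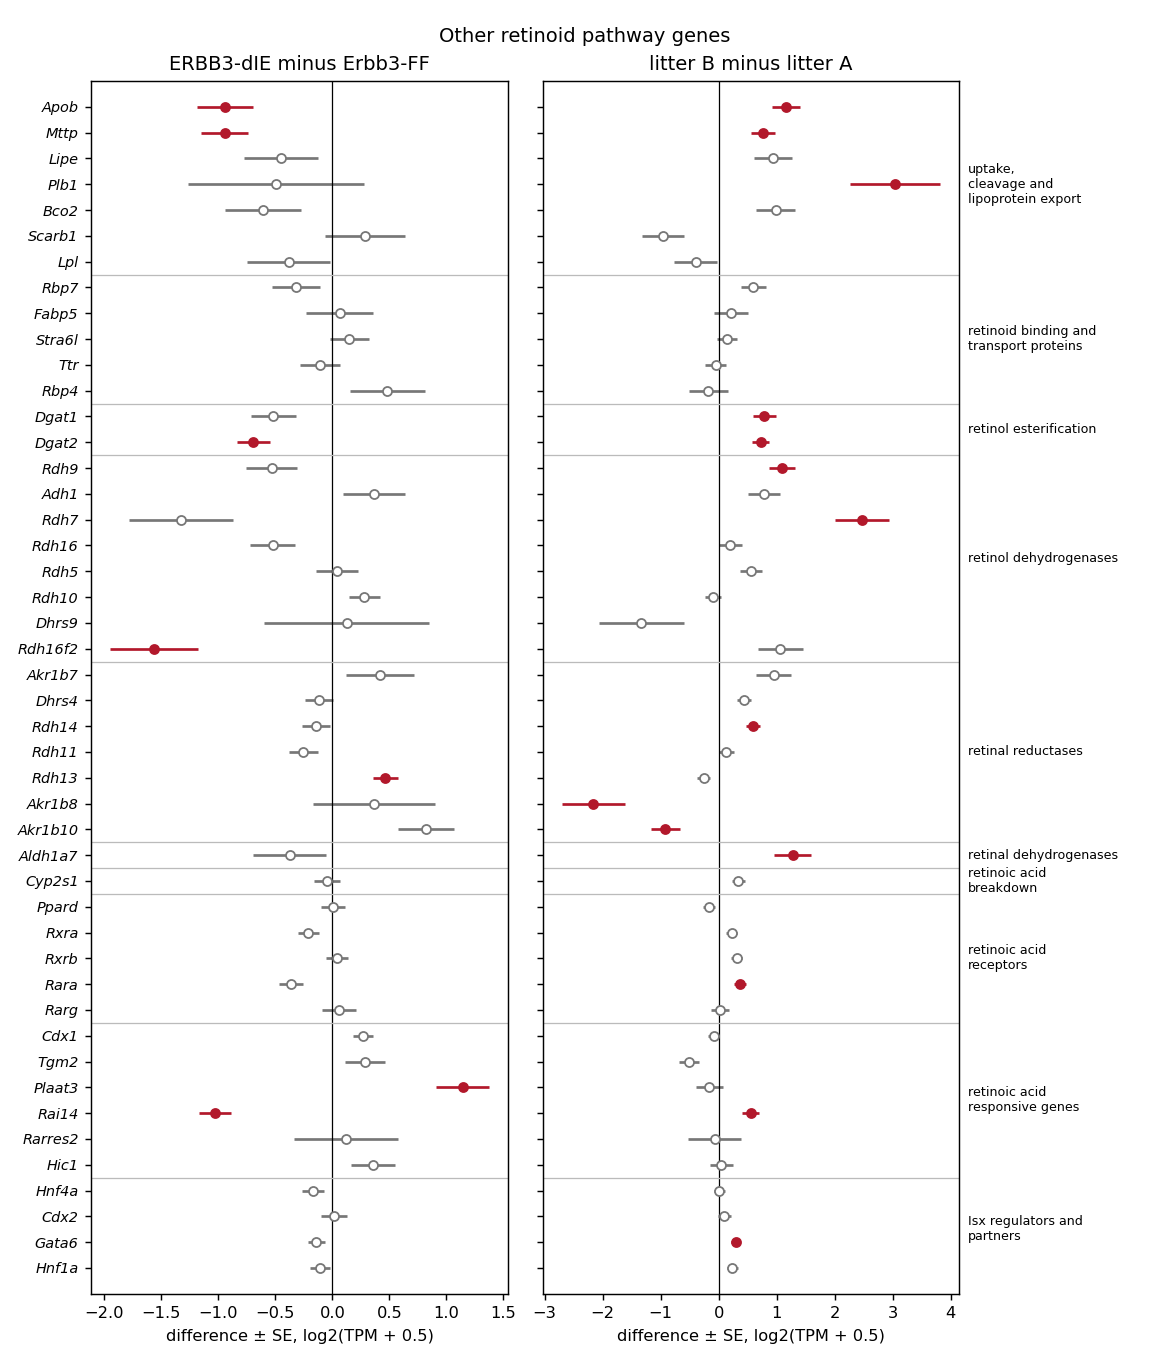
Differences with SE on the log2(TPM + 0.5) scale for the 46 other retinoid pathway genes tested (rows, grouped by role and ordered by level), between genotypes on the left and litters on the right, with filled red points past an adjusted p of 0.05. On the left 5 filled points are below 0 and 2 above, and on the right 12 are above 0 and 2 below.

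The genes whose pattern over the 12 libraries was most like that of each retinoid gene were taken by Pearson correlation of log2(TPM + 0.5) among 8345 protein-coding genes with a mean of at least 5 TPM. These correlations are descriptions over libraries that share genotype and litter. For Rbp2 they were Nat8, Erich4 and Slc46a3, with correlations of 0.984, 0.984 and 0.974, which were 0.92, 0.933 and 0.894 after genotype and litter were taken out. For Bco1 they included Ocm (0.963) and Prss23 (0.958), and for Lrat Hpgd (0.933) and Ptprr (0.922). For Aldh1a1 they were Slc35f5 (0.972), Vcpkmt (0.971) and Snapc5 (0.955).

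For Isx they were Tmem140 (0.965), Bnip3 (0.914) and Fam89b (0.913), and for Dhrs3 Pbld1 (0.957), Cyp27a1 (0.936) and Ccs (0.935). All 6 of these genes passed as higher in litter B, as 7.16% of all tested genes did, and none passed between genotypes. They were picked for their likeness to Isx and Dhrs3 over the same libraries, so this shared pattern follows from the choice and is not a separate result. Among the retinoid genes, the correlation was 0.918 between Rbp2 and Bco1, 0.911 between Bco1 and Lrat and 0.863 between Rbp2 and Lrat. After genotype and litter were taken out these were 0.519, 0.425 and 0.161. Isx and Dhrs3 had a correlation of 0.83, and 0.543 after both were taken out.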

How the data were processed

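RNA of scraped ileal mucosa was sequenced as single-end reads of 75 bases from strand-marked mRNA libraries, per the labels' protocols. CASAVA, Salmon 1.10.0, DESeq2 and the build GRCm39 are named in the submitters' processing notes. The sources used here do not give the annotation release or filters. The authors deposited TPM per library, each summing to 1000000, together with their own test, whose columns per the file headers are a mean normalized signal (baseMean), a log2 fold change with its standard error, a Wald score, and p-values and adjusted p-values. TPM keep no read depth, so no count model was fitted and no interval for counting error is given.

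Genotype, litter and mouse number came from the labels, and nothing says more of how the mice were sampled. The filter asked for 1 TPM or more in 6 or more libraries. Values of log2(TPM + 0.5) were fitted with limma 3.58.1 in R 4.3.3 (lmFit, and eBayes with a trend), with litter and genotype as terms and with their product in a second model. P-values were adjusted over all tested genes by the Benjamini-Hochberg method. Intervals are moderated 95% intervals and SE is the moderated standard error. Levels ± are SD over mice. Exact permutations exchanged genotypes within litters. Correlations between libraries lay between 0.878 and 0.955, so no library was near a copy of another. The fit was tested on simulated data.

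The 6 genes, the pathway list and the marker lists were chosen with earlier results of these data known, and the motifs after the values were seen. Named pathway genes were those past the threshold and the 2 most abundant per role that passed the filter, and a few others were named after their values were seen. Some genes are not reported here. Promoter windows are from RefSeq (GRCm38.p6), where all 6 genes matched, and shared 75-base words from GENCODE transcripts of the same build. A scan for a library that stands apart in a genotype, by the Dixon ratio over 26 gene and genotype groups, found 0. Alternatives covered the pseudocount, filter, scaling, variance, library weights, litter term, mouse number, each litter, covariates, libraries left out and the authors' test. Figures were drawn with matplotlib 3.10.9.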

Additional observations from a re-analysis of the deposited data

How the results depend on the processing

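The genotype differences of Rbp2, Bco1, Lrat, Dhrs3 and Aldh1a1 kept their sign under all alternatives run. Those of Rbp2, Bco1 and Lrat stayed past the threshold under both other pseudocounts, both other filters, all 3 scalings, robust variance and library weights. The same held with the smooth muscle score, with the colon score and in the authors' test. Without 1 library each, the genotype differences ran from −1.90 to −1.52 for Rbp2, −1.28 to −0.9999 for Bco1 and −0.88 to −0.68 for Lrat. For Isx they ran from −0.17 to −0.01, for Dhrs3 from 0.11 to 0.27 and for Aldh1a1 from −0.93 to −0.57. In each of these fits 3 genes of the 6 were called. Calls were lost, for Rbp2, Bco1 and Lrat in this order, without the litter term (−1.46, −0.92, −0.65), in litter A alone (−2.21, −1.415, −0.92) and B alone (−1.09, −0.71, −0.60), with the B cell score (−1.76, −1.23, −0.88), the pan-epithelial score (−1.57, −1.09, −0.85) or the enterocyte score (−0.74, −0.68, −0.67), and without the 2 libraries highest in smooth muscle genes (−1.53, −0.77, −0.64). In each of these 0 of the 6 were called. Litter alone tests fewer samples, and the cause of the other losses was not tested. Lrat was also lost without the 2 libraries rich in ribosomal sequence (−0.69). Aldh1a1 passed in the authors' test (−0.59) and by the exact permutation, which is not adjusted over genes (−0.80).

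Isx changed sign without the litter term (0.043), with the replicate block (0.043), the enterocyte score (0.17), the colon score (0.017), without the ribosome-rich libraries (0.028) and in the authors' test (0.029), and was called in none. With the enterocyte score the litter differences of Mttp (−0.070) and Dgat1 (−0.0097) also changed sign. Mttp is itself a member of the list behind this score, so its value there is not independent of the score. With mouse number as a replicate block in place of litter, 1 of the 6 genes was called: Bco1 (−0.92, adjusted p = 0.0506) and Lrat (−0.65, adjusted p = 0.0597) were not. The number does not mark a shared litter for mouse 3, and same-numbered mice had correlations of 0.0739 to 0.357 between their deviations, so the numbers were not taken as pairs.

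Litter calls among the 6 genes, 5 as reported, were 2 to 6 without 1 library, and 0 with each of the 5 scores except the pan-epithelial one, and 0 without either pair of libraries named above. Interaction calls were 0 throughout. Over all genes, 209 genes rose and 467 fell in ERBB3-dIE mice. The counts without 1 library were 95 to 213 higher and 190 to 621 lower. The higher and lower counts were 105 and 245 without a filter, 344 and 736 with library weights, 87 and 156 without the litter term, 4 and 2 in litter A, 6 and 9 in litter B, 29 and 38 with the B cell score, 137 and 86 with the pan-epithelial score, 22 and 18 with the enterocyte score, 43 and 65 without the libraries high in smooth muscle genes, and 786 and 1164 in the authors' test. Higher calls alone moved with quantile normalization (359), the colon score (139) and without the ribosome-rich libraries (83), and lower calls alone with TPM rescaled without mitochondrial and ribosomal genes (823). That rescaling moved the median litter difference of all genes from 0.05 to −0.08.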
